A study of Mus musculus with 15 samples.

Results

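Tetraspanins are small proteins that cross the cell membrane repeatedly and gather integrins, proteases and immune receptors around themselves into membrane patches. Several also sit on late endosomes and on the vesicles that cells release, and macrophages use them in adhesion, migration and cell fusion. The 10 genes followed here were Cd9, Cd63, Cd81, Cd82, Cd53, Cd37, Cd151, Tspan3, Tspan4 and Tspan31. They were listed by name, with earlier results of these data known. Each was read through the probe sets annotated to that symbol alone, the one with the highest mean standing for the gene. Of these 10, 9 had such a probe set and all 9 passed the filter on dim genes, out of 18193 genes with a probe set and 11925 past the filter. Cd63 was not analysed here. Cd9 was chosen by its own intensities on these arrays, a low level after 2 weeks of diet and a higher one after 14 weeks, so its values are given as a description with no test, while the other 8 members were tested.

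The samples were foam cells, lipid-filled macrophages of atherosclerotic lesions, cut by laser from sections of the aortic sinus of ApoE-/- mice on the C57BL/6 strain, which lack apolipoprotein E and develop such lesions. Every group carried that deletion. The CHOW mice ate regular chow until 22 weeks of age, and the 2w-WD and 14w-WD mice received a western-type diet for 2 and for 14 weeks. The labels gave 14w-WD as 8 weeks of chow before the diet, which ended at 22 weeks of age, whereas for 2w-WD they gave 20 weeks of chow in the samples' own text and a diet from week 22 to week 24 in the series' text, so the age of that group was not settled. Each group had 5 arrays (Affymetrix mouse genome arrays), 15 in all, hybridised with RNA amplified from the captured cells, and the labels did not tie arrays to animals, so the p-values below measure the spread between these samples. Levels are the deposited intensities, and changes are differences of log2(intensity + 16) with the first-named group minus the second, which understate the change of dim genes. In bulk captures such as these, fewer cells of a type and less RNA per cell cannot be told apart.

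The macrophage marker Adgre1 had intensities of 5819.5 to 7871 on CHOW, 5805 to 8615 on 2w-WD and 7486 to 8241 on 14w-WD arrays. All measured markers of macrophages but Itgam passed the filter (9 of 10), and the summed marker intensity ran from 67376 to 92344 on CHOW arrays, from 58520 to 78749 on 2w-WD arrays and from 71648 to 86007 on 14w-WD arrays. Other cells of the section were also present in the RNA: heart muscle genes were past the filter in 12 of 12 cases, with sums of 2504 to 76172, 55985 to 111415 and 26776 to 89238 in CHOW, 2w-WD and 14w-WD, and fibroblast genes in 6 of 6 cases, with sums of 29327 to 42568, 25805 to 35844 and 32800 to 46707. The other lists had 5 of 7 measured smooth muscle, 4 of 8 endothelial and 5 of 6 B cell markers past the filter. They also had 3 of 5 T cell, 4 of 5 platelet and 3 of 6 neutrophil markers past it. No measured marker was at 0, but few deposited values on any array lay below 1, so this says little about detection. Cnn1 (smooth muscle) had a median intensity of 1 on CHOW and on 14w-WD arrays. Pecam1 (endothelium), Cd79a (B cells) and Itga2b (platelets) were among the markers below the filter, while other markers were bright. Median intensities in CHOW, 2w-WD and 14w-WD were 12481, 9331 and 10627.5 for Acta2 (smooth muscle) and 4283, 4053 and 3846 for Vwf (endothelium). In the same order they were 1054.5, 1338 and 1244 for Pf4 (platelets) and 3491, 7232 and 3020.5 for S100a8 (neutrophils). These were the brightest markers of their lists. Far dimmer ones were Myh11 (smooth muscle) at 69.3, 42.9 and 44.6 and Tie1 (endothelium) at 8.2, 6.98 and 4.72. S100a9 (neutrophils), at 39.1, 46.0 and 64.5, did not follow S100a8. Ighm (B cells) reached 4163, 1831 and 183. Array medians lay between 31.7 and 38.2, while the share of probe sets brighter than 100 averaged 21.7% ± 1.84 on CHOW, 20.9% ± 2.86 on 2w-WD and 24.8% ± 1.79 on 14w-WD arrays (SD, n = 5 each).

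The promoter windows of Cd9 and Tspan3 are shown because these members had the closest profiles of any pair across the arrays. They run from 250 bases before to 50 after the gene start, are printed 5′ to 3′ on the gene's strand, and come from RefSeq on build GRCm38.p6. Cd9 lies at chr6:125494711-125495010 and Tspan3 at chr9:56161021-56161320, both on the minus strand. Capitals mark matches to 5 motifs, each searched on both strands. The letters of the GC box were GGGCGG. A further promoter element searched was the CCAAT box, by those letters. For the TATA box the search used TATAAA and for the E-box it used CACGTG. The core of a PU.1 site, bound by a myeloid factor, was searched as GAGGAAGT.
Cd9: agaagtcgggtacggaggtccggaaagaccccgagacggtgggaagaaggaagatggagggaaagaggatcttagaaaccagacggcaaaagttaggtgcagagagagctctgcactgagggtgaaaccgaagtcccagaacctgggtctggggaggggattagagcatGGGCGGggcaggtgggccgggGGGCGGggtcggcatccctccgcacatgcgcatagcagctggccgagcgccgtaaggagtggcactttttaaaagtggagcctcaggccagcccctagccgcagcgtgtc
Tspan3: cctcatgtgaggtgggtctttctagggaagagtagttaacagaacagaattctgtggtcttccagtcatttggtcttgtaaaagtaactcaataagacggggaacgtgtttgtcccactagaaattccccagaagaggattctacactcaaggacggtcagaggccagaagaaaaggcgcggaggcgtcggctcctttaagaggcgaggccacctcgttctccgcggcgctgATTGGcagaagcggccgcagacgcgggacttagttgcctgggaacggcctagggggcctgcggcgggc
Cd9 held GC boxes at -81 and -60 from the gene start, both on the gene's strand, and no other searched motif. Tspan3 held a CCAAT box at -18, on the opposite strand, and no GC box. Among 32851 RefSeq windows of 300 bases a GC box occurred in 35.7%, a CCAAT box in 37.4%, a TATA box in 13.6%, an E-box in 7.15% and the PU.1 core in 3.2%. No matches overlapped in these windows, and the windows shared no searched motif.

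Cd9 is a tetraspanin of adhesion and membrane fusion that is also a common marker of released vesicles, and it is described first as the member picked for its pattern. Its intensity was 755, 153, 169, 229 and 111 on the CHOW arrays, 154, 61.2, 62.4, 42.2 and 82.4 on the 2w-WD arrays and 744, 409, 427, 413 and 398 on the 14w-WD arrays. All 14w-WD arrays lay above all 2w-WD arrays, as the choice of Cd9 favoured, and groups separated in either direction in 8.63% of all genes. 2w-WD replicate 1 reached into the range of the CHOW arrays, and CHOW replicate 1, at 755, stood above every 14w-WD array. Mean log2 levels were 7.89 ± 1.01 on CHOW, 6.49 ± 0.58 on 2w-WD and 8.91 ± 0.37 on 14w-WD arrays (SD, n = 5 each). The differences were 2.42 (SE 0.42) for 14w-WD against 2w-WD, -1.40 for 2w-WD against CHOW and 1.02 for 14w-WD against CHOW, with the same SE.

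**Figure D1:**
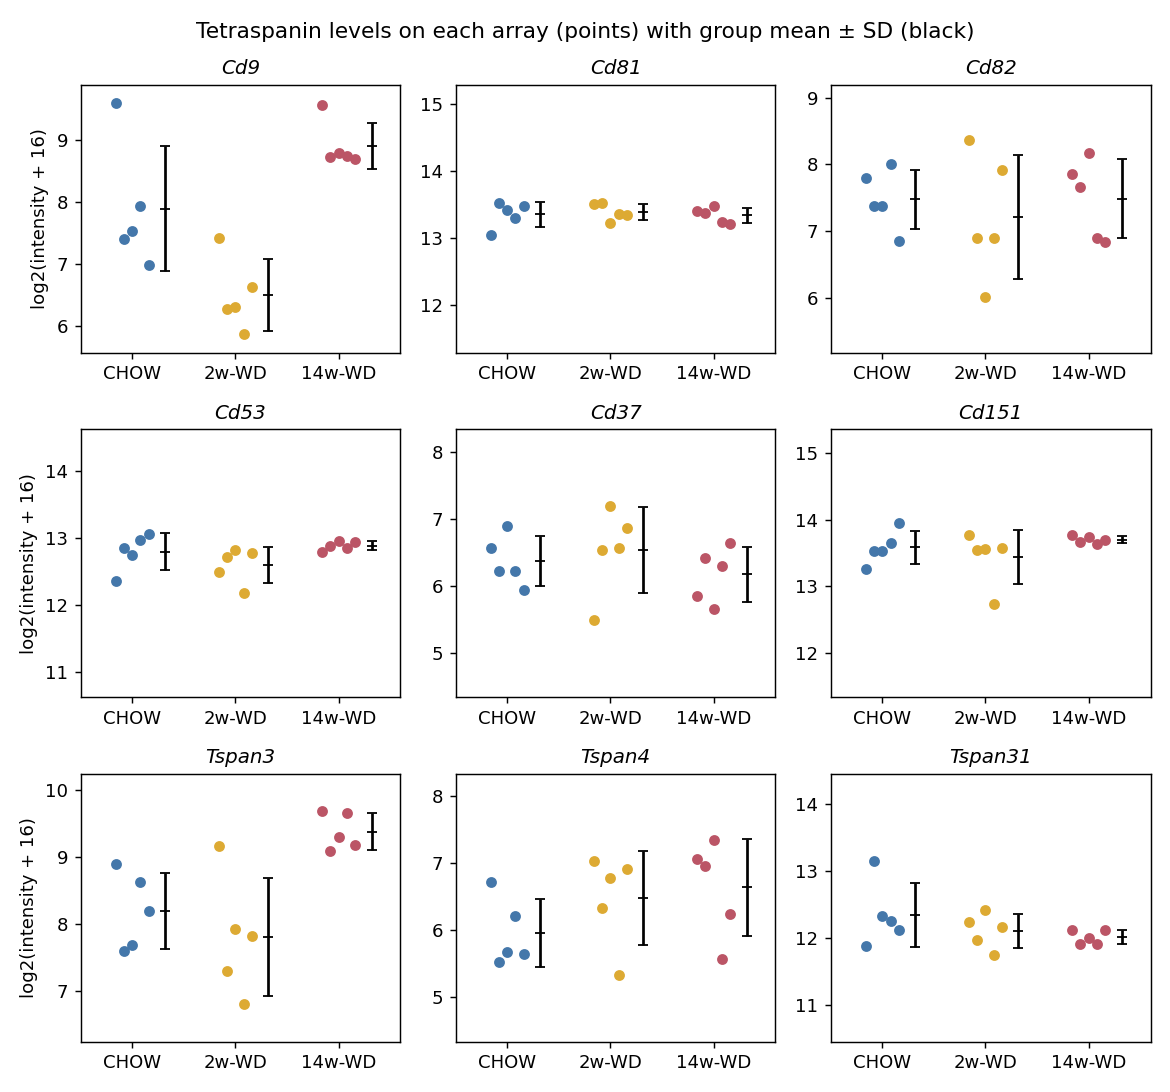
Level of 9 tetraspanin genes, as log2(intensity + 16), on each of the 15 arrays by diet group, each point 1 array and the black bars the group mean ± SD (n = 5). Every 14w-WD array lay above every 2w-WD array for Cd9, picked for its pattern. These groups separated in 8.63% of all genes. For Tspan3 the overlap was 2w-WD replicate 1, while the mean of Cd81 was 13.35, 13.39 and 13.33 in CHOW, 2w-WD and 14w-WD.

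Tspan3, a widely expressed family member, was the only one of the 8 tested members called in any comparison at an adjusted p of 0.05. Its intensity was 459.6, 177, 189, 379 and 275 on the CHOW arrays, 554, 142, 225, 95.3 and 209 on the 2w-WD arrays and 804, 526, 610, 794 and 563 on the 14w-WD arrays. Every 14w-WD array lay above every CHOW array, and the 14w-WD and 2w-WD arrays overlapped through 2w-WD replicate 1 alone. Mean log2 levels were 8.20 ± 0.57 on CHOW, 7.80 ± 0.88 on 2w-WD and 9.38 ± 0.28 on 14w-WD arrays (SD, n = 5 each). Tspan3 rose in 14w-WD against 2w-WD by 1.58 (SE 0.40, 2.99-fold, limma adjusted p = 0.0238). The change was 1.18 in 14w-WD against CHOW (adjusted p = 0.190, unadjusted 0.00829) and -0.40 in 2w-WD against CHOW (adjusted p = 0.725). The call ended without 14w-WD replicate 1 (1.51, adjusted p = 0.0724), 14w-WD replicate 3 (1.60, 0.0613), 2w-WD replicate 2 (1.46, 0.0658) or 2w-WD replicate 4 (1.33, 0.0656), fits in which limma called 143, 189, 267 and 291 genes of all against 1338 with every array.

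Read over the family, 1 of 8 tested members was called in 14w-WD against 2w-WD (12.5%), beside 11.2% of all 11925 genes and, for higher alone, 10.1%, so the share of members was close to the background. Limma called 0 of 8 members in 2w-WD against CHOW, where 0% of all genes were called, and 0 of 8 in 14w-WD against CHOW, where 0.00839% were. At an unadjusted p under 0.05 the limma counts of members were 0 in 2w-WD against CHOW, 1 in 14w-WD against CHOW and 1 in 14w-WD against 2w-WD, beside 9.76%, 15.9% and 32.1% of all genes. The F test over the 3 groups called 0 of 8 members, beside 2.62% of all genes, with Tspan3 at an adjusted p of 0.0611, and called 1 member without 2w-WD replicate 1 or without CHOW replicate 1. Tspan3 was also the only tested member whose groups did not overlap in 14w-WD against CHOW, where that held for 4.87% of all genes, and 0 tested members separated completely in 14w-WD against 2w-WD, where 8.63% of all genes did. Median changes of the 9 members were 0.26 in 14w-WD against 2w-WD, 0.09 in 14w-WD against CHOW and -0.19 in 2w-WD against CHOW, beside 0.23, 0.16 and -0.10 for all genes, and without Cd9 they were 0.21, 0.05 and -0.17. After quantile normalization the first of these, over 9 members, was -0.06. The 14w-WD comparisons share their arrays with each other and with the 2w-WD comparison, so their values are not independent.

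**Figure D2:**
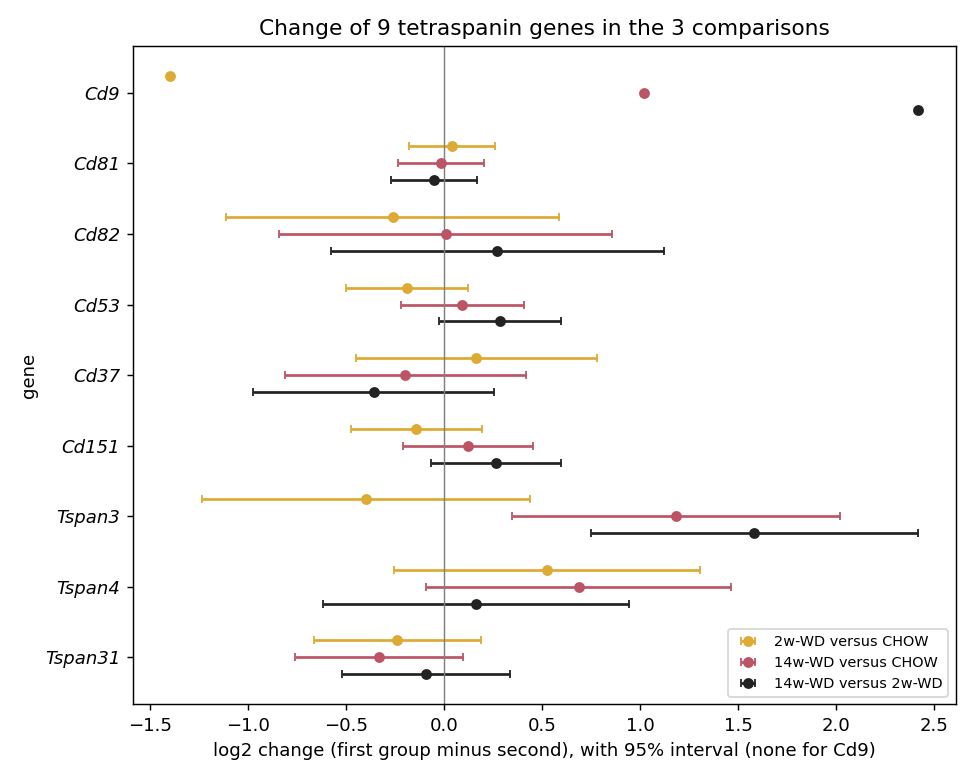
Change in log2(intensity + 16) of the 9 members in the 3 comparisons, first group minus second, with limma's 95% interval for the 8 tested members and no interval for Cd9. Only the Tspan3 intervals for 14w-WD against 2w-WD and for 14w-WD against CHOW lay wholly above 0.

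Of the members that mark leukocytes, Cd53 is found on most white blood cells. Its intensity was 5195, 7313, 6813, 7946 and 8529 on the CHOW arrays, 5744, 6728, 7232, 4610.4 and 7001 on the 2w-WD arrays and 7064, 7535, 7910.2, 7323 and 7823 on the 14w-WD arrays. All groups overlapped, and the lowest arrays were 2w-WD replicate 4 and CHOW replicate 1. The change was 0.28 in 14w-WD against 2w-WD (SE 0.15, 95% interval -0.03 to 0.60, limma adjusted p = 0.193), 0.09 in 14w-WD against CHOW and -0.19 in 2w-WD against CHOW. Cd37, best known from B cells, was a dim gene here. Its intensity was 78.3, 58.5, 103, 58.7 and 45.1 on the CHOW arrays, 28.8, 77.0, 129, 78.8 and 100.7 on the 2w-WD arrays and 41.5, 69.1, 34.5, 62.2 and 83.1 on the 14w-WD arrays. The groups overlapped throughout, and the changes were -0.36 in 14w-WD against 2w-WD (95% interval -0.98 to 0.25), -0.20 in 14w-WD against CHOW and 0.16 in 2w-WD against CHOW. A second Cd37 probe set lay below the filter, with intensities of 1 to 12.5 (r with the first -0.27). It gave 0.25 in 14w-WD against 2w-WD, 0.40 in 14w-WD against CHOW and 0.14 in 2w-WD against CHOW. The summed B cell markers reached 4556 on a CHOW array, 2100 on a 2w-WD array and 589 on a 14w-WD array, with medians of 509, 486 and 537 and lowest sums of 364, 384 and 429. The highest sums rested mostly on the immunoglobulin gene Ighm, which reached 4163 on CHOW, 1831 on 2w-WD and 183 on 14w-WD arrays. The part of B cells in the Cd37 level was not tested.

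Cd81, together with Cd9, restrains the fusion of mouse macrophages. Its intensity was 8427, 11761, 10890.1, 10053 and 11369.6 on the CHOW arrays, 11557, 11748, 9540.3, 10502 and 10352 on the 2w-WD arrays and 10778, 10525, 11411, 9599 and 9387 on the 14w-WD arrays. The groups overlapped fully. Its changes of -0.05 in 14w-WD against 2w-WD, -0.02 in 14w-WD against CHOW and 0.04 in 2w-WD against CHOW had 95% intervals of -0.27 to 0.16, -0.23 to 0.20 and -0.18 to 0.26, the narrowest of the 8 tested members. Cd82, known as a suppressor of metastasis, had wide intervals instead. Its intensity was 206, 151, 149.8, 240.4 and 99.9 on the CHOW arrays, 313, 104, 48.6, 104 and 225 on the 2w-WD arrays and 217, 186, 274, 104 and 98.8 on the 14w-WD arrays. 2w-WD arrays reached both above and below all the others, and the change was 0.27 in 14w-WD against 2w-WD (95% interval -0.58 to 1.12, and -0.06 after quantile normalization), 0.01 in 14w-WD against CHOW and -0.26 in 2w-WD against CHOW.

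Cd151 binds the laminin-binding integrins. Its intensity was 9770.0, 11839.9, 11776, 12843 and 15807 on the CHOW arrays, 13952, 11987, 12123, 6842 and 12145 on the 2w-WD arrays and 13983, 13018, 13664, 12713 and 13198 on the 14w-WD arrays. The 14w-WD arrays lay close together inside the range of the CHOW arrays, and 2w-WD replicate 4 was the lowest array of all. The change was 0.26 in 14w-WD against 2w-WD (SE 0.16, limma adjusted p = 0.255), 0.12 in 14w-WD against CHOW and -0.14 in 2w-WD against CHOW. Of its 6 probe sets, a second bright one followed the representative across arrays (Pearson r = 0.92, n = 15) with a 14w-WD against 2w-WD change of 0.14. The other 4 were far dimmer, at mean log2 levels of 5.59 to 7.34 against 13.58 for the representative. They gave 1.37, 0.18, -0.33 and -0.82, the last of them below the filter, so the probe sets of Cd151 disagreed in sign.

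**Figure D3:**
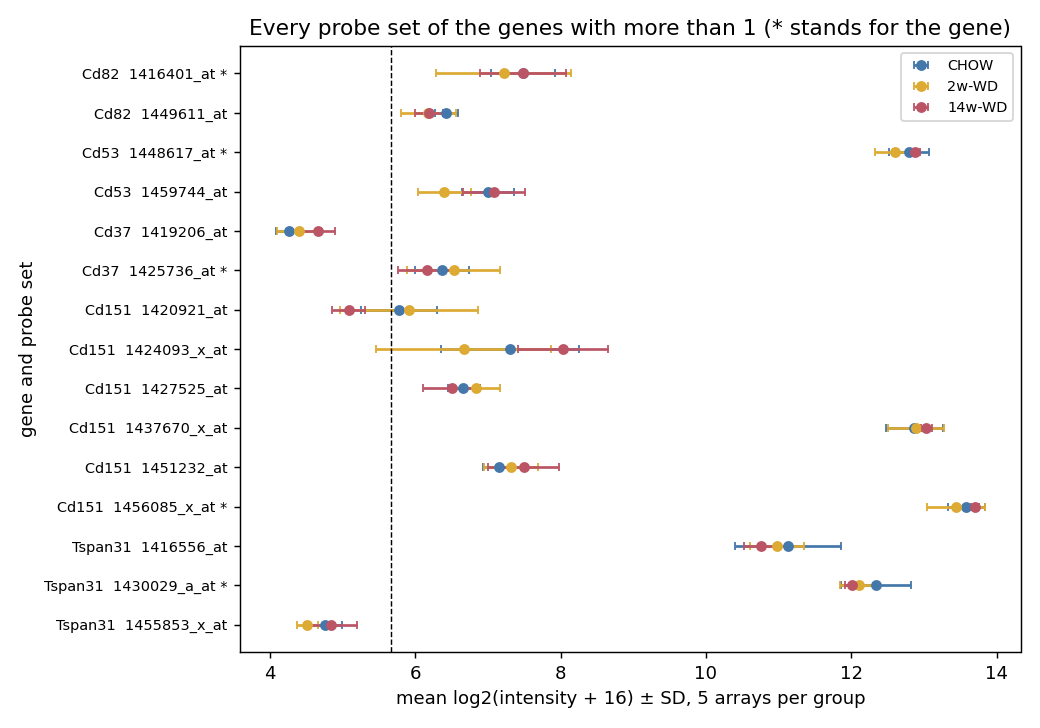
Mean log2(intensity + 16) ± SD of each probe set of the 5 members with more than 1, by diet group (n = 5 arrays each), with an asterisk for the probe set that stands for the gene and a dashed line at the filter level of 5.66. The 14w-WD means lay above the 2w-WD means on 4 of the 6 Cd151 probe sets and below them on 2.

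Tspan4, a core protein of migrasomes, the vesicles left behind by migrating cells, had intensities of 89.4, 29.9, 35.2, 58.1 and 33.9 on the CHOW arrays, 115, 64.4, 94.2, 24.0 and 105 on the 2w-WD arrays and 118, 109, 147, 31.6 and 60.0 on the 14w-WD arrays. Dim arrays occurred in every group, with 24.0 on 2w-WD replicate 4 the lowest, and the groups overlapped. The change was 0.52 in 2w-WD against CHOW (SE 0.37), 0.68 in 14w-WD against CHOW (limma adjusted p = 0.372) and 0.16 in 14w-WD against 2w-WD, which was -0.07 after quantile normalization. With array weights the change in 14w-WD against CHOW was 0.98 and was called (adjusted p = 0.0273), as was that of Tspan3 (1.36, adjusted p = 0.00686), in a fit that called 2234 genes of all. Tspan31, first described as a gene amplified in human sarcoma, had intensities of 3738, 9059.9, 5132, 4843 and 4432 on the CHOW arrays, 4805, 3994, 5421, 3427 and 4553 on the 2w-WD arrays and 4412, 3826, 4085, 3838 and 4415 on the 14w-WD arrays. CHOW replicate 2 was far above the other arrays, and the groups overlapped. Its changes of -0.24 in 2w-WD against CHOW, -0.33 in 14w-WD against CHOW (limma adjusted p = 0.427) and -0.09 in 14w-WD against 2w-WD had an SE of 0.20. A second Tspan31 probe set gave -0.23 in 14w-WD against 2w-WD (r with the first 0.70), and a second Cd53 probe set gave 0.68 (r with the first 0.32).

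The levels of several members moved with how bright an array was over all. Across the 15 arrays, which share amplification and hybridisation within each sample, the share of probe sets above 100 correlated with Cd9 (r = 0.82, rho = 0.89), Tspan3 (r = 0.87, rho = 0.84), Tspan4 (r = 0.70, rho = 0.64) and Cd82 (r = 0.65, rho = 0.66). After group means were removed the r values were 0.78, 0.76, 0.80 and 0.76, and without the 2 arrays of most extreme share, 14w-WD replicate 3 and 2w-WD replicate 4, they were 0.79, 0.85, 0.53 and 0.58. Cd37 went the other way (r = -0.63, rho = -0.57), at -0.55 without those 2 arrays. Lower values over 15 arrays were those of Cd151 (r = 0.45, rho = 0.50), Cd53 (r = 0.15, rho = 0.17), Cd81 (r = -0.08, rho = 0) and Tspan31 (r = -0.20, rho = -0.18), which without the 2 arrays were 0.10, -0.39, -0.24 and -0.39. The brightest arrays outside 14w-WD were 2w-WD replicate 1 at 25.7% and CHOW replicate 1 at 24.7%, the arrays on which Cd9 and Tspan3 were highest in their groups. The dimmest was 2w-WD replicate 4 at 18.2%, the array with the lowest Cd9, Tspan3 and Tspan4 of its group. With that share as a covariate the 14w-WD against 2w-WD change of Tspan3 was 0.73 (limma adjusted p = 0.679) and that of Cd9 1.43, the 14w-WD against CHOW change of Cd9 was 0.23, and limma called 0 genes of all. The share was computed from the same intensities and averaged 24.8% on 14w-WD and 20.9% on 2w-WD arrays. Diet group and array brightness therefore cannot be told apart by this fit. Relative to the median change of all genes in 14w-WD against 2w-WD, Tspan3 lay 1.35 above and Cd9, picked for this difference, 2.19 above. After quantile normalization, which set that median at 0.00709, they lay 1.13 and 2.07 above. With the share of bright probe sets as a covariate they lay 0.69 and 1.39 above.

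**Figure D4:**
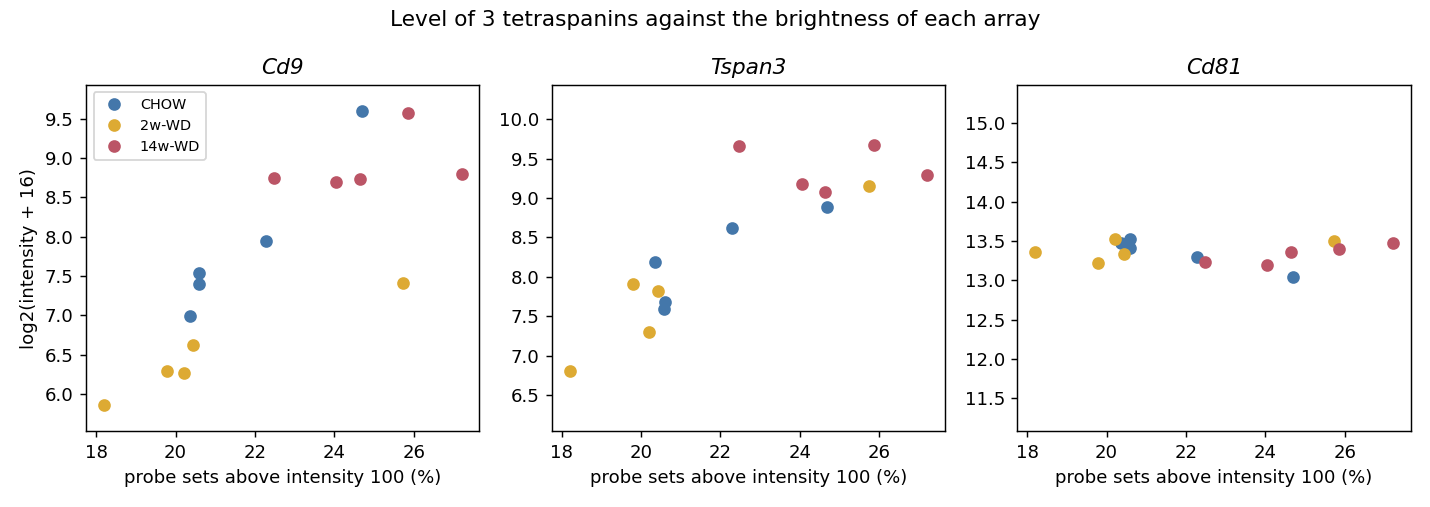
Level of Cd9, Tspan3 and Cd81, as log2(intensity + 16), against the percentage of probe sets brighter than 100 on the same array, 15 arrays coloured by diet group. Cd9 (r = 0.82) and Tspan3 (r = 0.87) were higher on brighter arrays, and Cd81 (r = -0.08) was not.

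Among the members, Tspan3 followed Cd9 most closely (Pearson r = 0.86, Spearman rho = 0.82, n = 15 arrays, and r = 0.74 after group means were removed). Without CHOW replicate 1 and 14w-WD replicate 1, the arrays farthest from the median of Cd9, r was 0.87. Among all genes past the filter Tspan3 had rank 493 in likeness to Cd9. The 5 nearest were Scaf11 (r = 0.97), Ptpn9 (0.97), Larp4 (0.97), Ensa (0.96) and Cers5 (0.96), and with group means removed their r values lay between 0.91 and 0.94. Over 6 other settings the lowest r was 0.75 for Scaf11, 0.82 for Ensa, 0.90 for Larp4 and 0.94 for Ptpn9 and Cers5. For Tspan3 it was 0.76, so the order depended on the processing. The other members ran from Cd82 (r = 0.45) to Cd81 (r = -0.38). Cd53 and Cd151 had an r of 0.82 (rho = 0.61), which was 0.32 without 2w-WD replicate 4 and CHOW replicate 1, so the relation rested on those arrays. The most opposed pair was Cd82 and Cd37 (r = -0.60, rho = -0.56), at -0.27 without the 2 arrays farthest from the median of Cd82.

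Outside the listed genes, the rest of the tetraspanin family was followed through 21 further genes, of which 20 were measured and 14 passed the filter. Tspan14, which carries the protease Adam10 to the cell surface, was the only one of the 14 called in 14w-WD against 2w-WD, where 11.2% of all genes were. Its intensity was 138, 80.2, 41.1, 225 and 65.2 on the CHOW arrays, 32.6, 30.0, 36.1, 30.5 and 29.3 on the 2w-WD arrays and 263, 166, 315, 107 and 199 on the 14w-WD arrays. All 2w-WD arrays lay below every array of both other groups, and the 2w-WD mean (5.57) was under the filter level of 5.66, so Tspan14 passed the filter through the other groups. Tspan14 rose in 14w-WD against 2w-WD by 2.16 (SE 0.34, limma adjusted p = 0.00553), and the call held with every single array left out (2.01 to 2.36, highest adjusted p = 0.0250) but not with the share of bright probe sets as a covariate (1.63, adjusted p = 0.306). Its change was -1.22 in 2w-WD against CHOW (adjusted p = 0.480) and 0.95 in 14w-WD against CHOW (adjusted p = 0.212). Non-overlapping groups occurred in 1.12% of all genes in 2w-WD against CHOW and in 8.63% in 14w-WD against 2w-WD. The median over the 14 genes was 0.12 in 14w-WD against 2w-WD, below the 0.23 of all genes, and limma called 0 of them in both comparisons with CHOW, with 1 (Tspan14) at an unadjusted p under 0.05 in each, beside 9.76% of all genes in 2w-WD against CHOW and 15.9% in 14w-WD against CHOW. The values of Tspan8 (-0.43) and Tspan10 (-0.70) in 2w-WD against CHOW and of Tspan2 (-0.41) and Tspan13 (0.61) in 14w-WD against CHOW did not pass the test. Without CHOW replicate 1 the 14w-WD against 2w-WD count was 2, the added gene being Upk1b, named after its values were seen. Upk1b was lower in 14w-WD than in 2w-WD (-1.12 with every array).

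The binding partners of tetraspanins were 23 genes, 22 measured and 20 tested. In 14w-WD against 2w-WD limma called 1 higher, Itga6, and 1 lower, Itgb1, a share close to the 11.2% of all genes called, and the list's median was 0.35, beside 0.23 for all genes. Itga6, a laminin-binding integrin chain and a partner of Cd151, had intensities of 301, 218, 187, 370.1 and 200.2 on the CHOW arrays, 238, 146, 94.5, 55.1 and 155 on the 2w-WD arrays and 521, 461, 581, 262 and 327 on the 14w-WD arrays. All 14w-WD arrays lay above all 2w-WD arrays, and groups separated in either direction in 8.63% of all genes. Itga6 rose by 1.61 (SE 0.35, limma adjusted p = 0.0163), and a second probe set gave 1.55. The call ended without 14w-WD replicate 1 (adjusted p = 0.0541) or 14w-WD replicate 3 (0.0528). It also ended with the share of bright probe sets as a covariate (0.79, adjusted p = 0.546). Itgb1, the integrin chain that pairs with Itga6, changed by -1.21 (SE 0.27, adjusted p = 0.0174) on its representative probe set but by 0.41 and 2.03 on other probe sets past the filter, so its direction was not settled. In 2w-WD against CHOW the limma counts were 0 called and 4 at an unadjusted p under 0.05, beside 9.76% of all genes, with Adam17, a sheddase, at -1.65 (-0.87 without 2w-WD replicate 4), Itga6 at -0.90 and Slc3a2, the heavy chain of an amino acid transporter, at -0.47. In 14w-WD against CHOW they were 0 and 1, beside 15.9% of all genes at that unadjusted p, with Itgb1 at -0.96, Itga3 at -0.60 and Itga6 at 0.71. The list's count of calls in 14w-WD against 2w-WD was 0 without 14w-WD replicate 1 or 14w-WD replicate 3, 1 without 2w-WD replicate 3, 2w-WD replicate 5 or CHOW replicate 5, 4 without 2w-WD replicate 1, and 0 with that covariate.

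Genes of late endosomes and released vesicles, compartments that carry tetraspanins, numbered 15, all measured and 14 tested. In 14w-WD against 2w-WD 4 of the 14 were called, all higher, beside 10.1% of all genes called higher, and the median of the 14 was 0.45, beside 0.23 for all genes. At an unadjusted p under 0.05 the limma count was 5 of the 14, beside 32.1% of all genes. The F test over the 3 groups called 0 of the 14, beside 2.62% of all genes. Tsg101, a subunit of the sorting complex ESCRT-I, had intensities of 538, 272, 134, 443 and 227 on the CHOW arrays, 328, 97.4, 176, 64.4 and 146 on the 2w-WD arrays and 711, 495, 477, 264 and 539.8 on the 14w-WD arrays. The 14w-WD and 2w-WD arrays overlapped through 14w-WD replicate 4 and 2w-WD replicate 1, and Tsg101 rose by 1.64 (limma adjusted p = 0.0264). Lamp1, a lysosomal membrane protein, rose by 0.37 (adjusted p = 0.0389), Sdcbp, the vesicle adaptor syntenin, by 0.54 (adjusted p = 0.0411), and Vps4b, the ATPase that takes ESCRT apart, by 1.25 (adjusted p = 0.0483). Other probe sets gave -0.08 and -0.02 for Vps4b and, for Sdcbp, 0.18 and 0.24. The count fell to 0 without 14w-WD replicate 1, 2, 3 or 5 and without 2w-WD replicate 2 or 4, was 2 (Lamp1 and Tsg101) without CHOW replicate 3, and was 0 with the share of bright probe sets as a covariate. Limma called 0 of the 14 in 2w-WD against CHOW (4 had an unadjusted p under 0.05, beside 9.76% of all genes), and Tsg101 stood at -0.95, Lamp1 at -0.31 and Pdcd6ip, the ESCRT partner Alix, at 0.38. It called 0 in 14w-WD against CHOW (1 had an unadjusted p under 0.05, beside 15.9% of all genes), and Vps4a stood at 1.01, Tsg101 at 0.68 and Sdcbp at 0.26.

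**Figure D5:**
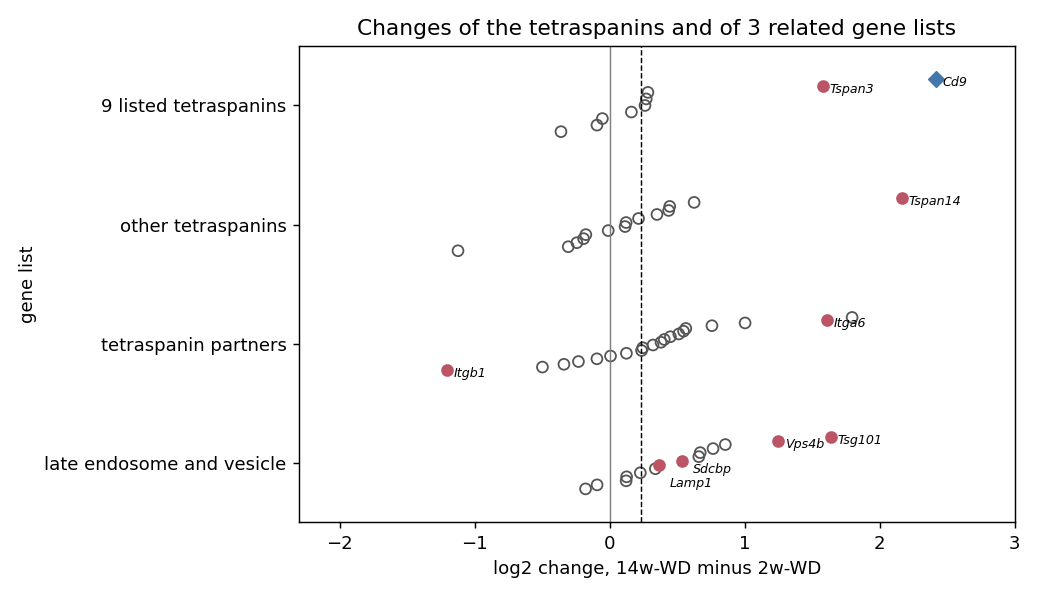
Change in 14w-WD against 2w-WD of each gene of 4 lists, with filled points for genes called by limma, open points for the others, a diamond for Cd9 (not tested) and a dashed line at the all-gene median of 0.23. The called genes were Tspan3, Tspan14, Itga6 and Itgb1, and Tsg101, Vps4b, Sdcbp and Lamp1.

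Some markers of other cells were called in the same comparison. In 14w-WD against 2w-WD limma called 2 of the 6 fibroblast markers higher, the collagen gene Col1a1 (1.05) and the growth factor receptor gene Pdgfra (1.95), and 1 of the 9 macrophage markers, Tyrobp (0.38), beside 11.2% of all genes. The values of the other 8 macrophage markers tested lay between -0.04 (Csf1r) and 1.38 (Cd14), with Adgre1 at 0.14, and did not pass the test. Limma called 0 markers of the other 7 lists, and the part of the called markers in the Tspan3, Tspan14 and Itga6 changes was not tested. With the mean of the heart muscle markers as a covariate the 14w-WD against 2w-WD change of Tspan3 was 1.62 and the count of members called was 1.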

How the data were processed

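The study hybridised amplified RNA of laser-captured foam cells to 15 arrays, 5 in each of CHOW, 2w-WD and 14w-WD, and arrays were grouped by their titles. The values are 1 linear intensity per probe set and array, as deposited by the authors. Their summarisation, background correction and scaling are not given in the sources used here, so steps that pull arrays together could have changed the differences. Each array had 45037 probe sets, of which 34945 had 1 gene symbol in the platform annotation, 932 had several and 9160 were unnamed here, and only the first kind was used. The number of arrays limits the precision.

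From the deposited intensity, log2(intensity + 16) was computed here, the probe set with the highest mean stood for a gene, and genes whose mean lay at or above the median of all probe sets (5.66 on that scale, an intensity of 34.6) were tested. limma 3.58.1 in R 4.3.3 was fitted to all 15 arrays with an intensity trend, p-values were two-sided and adjusted by Benjamini-Hochberg over 11925 genes, and a gene was called at an adjusted p under 0.05. The fit was first tested on simulated data. Related gene lists (other tetraspanins, binding partners, late endosome and vesicle) and cell type markers (macrophage, heart muscle, smooth muscle, endothelium, fibroblast, B cell, T cell, platelet, neutrophil) were described by counts and levels. The members and lists were chosen with earlier results of these data known. The text names all members, the called genes of each list (at most 6 by p) or the 3 with the smallest p where none was called, and the 5 genes with the highest Pearson r with Cd9. Likeness to Cd9 was ranked among genes past the filter. Alternatives were quantile normalization, median centring, pseudocounts of 1 and 64, no filter, the mean of a gene's probe sets, array weights, no intensity trend, only the groups compared, a replicate block, 2 covariates and leaving out each array. The same alternatives for the related lists were chosen after seeing the data. Promoter windows were found for 10 of 10 members in RefSeq.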

Additional observations from a re-analysis of the deposited data

Results flagged for a closer look

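Within each group of 5 arrays, the highest or lowest array of each of the 8 tested members was set against the others by Dixon's criterion, and 1 of 24 groups passed the critical value of 0.71. Chance alone flags about 1 in 20 groups. Cd151 on 2w-WD replicate 4 had a log2 level of 12.74, below the 13.55 to 13.77 of the other 2w-WD arrays, with a gap of 0.787 of the range. That array also had the lowest share of bright probe sets of all 15 (18.2%). Without it the Cd151 change was 0.03 in 2w-WD against CHOW and 0.09 in 14w-WD against 2w-WD.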

How the results depend on the processing

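With 5 arrays a group, changes near the size of the SEs above cannot be told from the spread between arrays, and dim members such as Cd37 and Tspan4 are limited by their signal. Of the members' changes, 269 of 285 values kept their direction and their side of the threshold under the alternatives other than leaving out arrays. With 1 array left out 338 of 360 did so. Many of these values could hardly turn. No filter, no intensity trend, a replicate block or an array left out of the third group left the size of a change as it was. Apart from Tspan3 in 14w-WD against 2w-WD, all tested members also started as not called. The counts therefore say little about stability. With 1 array left out, the count of members called was 0 to 1 in 14w-WD against 2w-WD and 0 to 1 in the F test. The share of bright probe sets as a covariate gave 0 called in 14w-WD against 2w-WD. Array weights gave 2 called in 14w-WD against CHOW and 2 in the F test, and the mean of a gene's probe sets gave 1 in the F test. The labels did not tie replicate numbers together, and whether the numbers share a batch was not settled. Of 15 same-numbered pairs, 7 had deviations correlated above 0.1 (range -0.17 to 0.48). Among 5 candidates each, 6 of 15 arrays correlated best with their own number. The fit with the replicate block called 1 member in the F test (Tspan3) and 1 in 14w-WD against 2w-WD, with 2122 genes of all called in place of 1338.

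The direction turned with the share of bright probe sets as a covariate for Cd37 in 14w-WD against 2w-WD (0.15) and against CHOW (0.21), Cd82 in 14w-WD against 2w-WD (-0.66) and against CHOW (-0.73), Tspan4 in 14w-WD against 2w-WD (-0.77) and against CHOW (-0.055), and Tsg101 in 14w-WD against CHOW (-0.11). Quantile normalization turned Cd82 in 14w-WD against 2w-WD (-0.060) and against CHOW (-0.30) and Tspan4 in 14w-WD against 2w-WD (-0.068). Median centring turned Cd82 in 14w-WD against CHOW (-0.039), and array weights turned Cd81 in 2w-WD against CHOW (-0.044). The mean of a gene's probe sets turned Cd82 in 14w-WD against CHOW (-0.11), Tspan31 in 14w-WD against 2w-WD (0.00076), and Itgb1 in 14w-WD against 2w-WD (0.11) and against CHOW (0.059), and with only the groups compared Itgb1 was 0.41 and 0.92. The probe set that stood for Itgb1 changed with the arrays used; elsewhere the cause was not tested.

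With 1 array left out, ranges that crossed 0 were, in 2w-WD against CHOW, Cd151 (-0.23 to 0.031), Cd37 (-0.0018 to 0.42), Cd81 (-0.039 to 0.081) and Cd82 (-0.55 to 0.038). In 14w-WD against CHOW they were Cd53 (-0.019 to 0.16), Cd81 (-0.093 to 0.027), Cd82 (-0.16 to 0.17) and Itgb1 (-1.09 to 0.21), and in 14w-WD against 2w-WD Cd82 (-0.031 to 0.56), Tspan4 (-0.13 to 0.43) and Itgb1 (-1.38 to 0.41).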
